A study of Mus musculus with 4 samples.

Results

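Plasma and B cell rich spots are the capture spots of 3 mouse liver sections with the highest share of Jchain, Cd79a and Ighj4 transcripts. Visium slides read RNA in small barcoded areas, here called spots, each of which can hold several cells of different types. Among the 10543 spots with at least 2000 unique molecular identifiers (UMIs, 1 per captured transcript), the top 5 percent of each section was taken, which gave 528 rich spots. Of these, 206 lay in the first fibrotic section, 129 in the second and 193 in the Hk2-deleted one, and the remaining 10015 spots of the same sections were the comparison. The whole series holds 13640 spots. The spots were chosen by the measured UMIs of these 3 genes, so the levels of these genes describe the choice and were not tested.

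Each section came from 1 male mouse of 5 months, and all 4 mice carried floxed alleles of Hk2, which encodes hexokinase 2, the first enzyme of glycolysis. The fibrotic 1 and fibrotic 2 sections were HK2fl/fl without Cre and received carbon tetrachloride (CCl4), a hepatotoxin that injures the liver around the central veins, at 1 µL per g of body weight 2 times a week for 6 weeks. The Hk2-deleted section was PDGFRBcreERT2/Hk2fl/fl with the same CCl4 schedule; its Cre is driven by Pdgfrb, a gene of stellate cells and also of other perivascular cells. A healthy HK2fl/fl section received olive oil. Tamoxifen, which activates this Cre, went to every mouse at 75 mg/kg on 5 days, followed by a wait of 2 weeks. With 1 mouse per section, a genotype difference cannot be told apart from a difference between mice.

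Plasma cells are the antibody-secreting end stage of B cells. They join heavy and light chains into immunoglobulin, and the J chain links IgA or IgM units into polymers that epithelia can carry into bile and gut. IgA plasma cells arise mostly in the gut, whose blood drains to the liver, while IgG is the main class of systemic responses. B cells that have not matured into plasma cells carry membrane immunoglobulin with Cd79a and Cd79b and present antigen on MHC class II.

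The treated sections held 40585039 to 67479047 UMIs, and rich spots were about as deep as the others. Their median was 16441 UMIs against 15170 in fibrotic 1, 13248 against 13671 in fibrotic 2, and 14929 against 15059 in Hk2-deleted. Hk2, the deleted gene, stood at 9.40, 4.94 and 4.38 CPM (counts-per-million of the summed UMIs) in the rich spots of these sections and at 4.62, 3.90 and 3.45 CPM in the other spots, and it did not pass the test between rich and other spots (log2 0.49 ± 0.24 SE, n = 3 sections, edgeR adjusted p = 0.111). Although labelled male, fibrotic 1 had 0.415 CPM of the Y-linked Ddx3y, where the other sections had 47.0 to 52.4 CPM. Results without it are given only for the share of all genes called, for the T and NK cell genes and for Cldn4. Of the named genes compared between rich and other spots, 15 lost their call without it. A further 1 turned direction, and 99 kept direction and call.

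The 3 genes contributed unequally. Jchain (ENSMUSG00000067149, chromosome 5 from 88519809 to 88527897 in GRCm38.p6) gave 60.1% of the counted UMIs of rich spots in fibrotic 1, 65.0% in fibrotic 2 and 63.9% in Hk2-deleted. Ighj4 (ENSMUSG00000076618, chromosome 12 from 113428514 to 113428567), a joining segment of the heavy chain locus, gave 38.6%, 33.3% and 34.4%. Cd79a (ENSMUSG00000003379, chromosome 7 from 24897497 to 24901858), a signalling chain of the B cell receptor, gave 1.28%, 1.67% and 1.74%. The choice therefore rests almost wholly on Jchain and Ighj4, both abundant in plasma cells. Cd79a was detected in 53.9%, 36.4% and 45.1% of rich spots and in 22.2%, 14.6% and 19.9% of the others.

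The limit of the choice differed between sections. The last spot inside had 1579, 681 and 1421 CPM of the 3 genes together in fibrotic 1, fibrotic 2 and Hk2-deleted, and the first outside had 1562, 679 and 1417. The median rich spot held 2856, 1266 and 2591 CPM of them, against 246, 104 and 239 CPM in the other spots. Rich spots held 41.1%, 44.1% and 35.5% of their section's UMIs of these genes, so more of these UMIs lay in spots outside the choice than in it. None of the 3 genes was seen in 10.5%, 25.5% and 7.05% of the other spots.

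**Figure D1:**
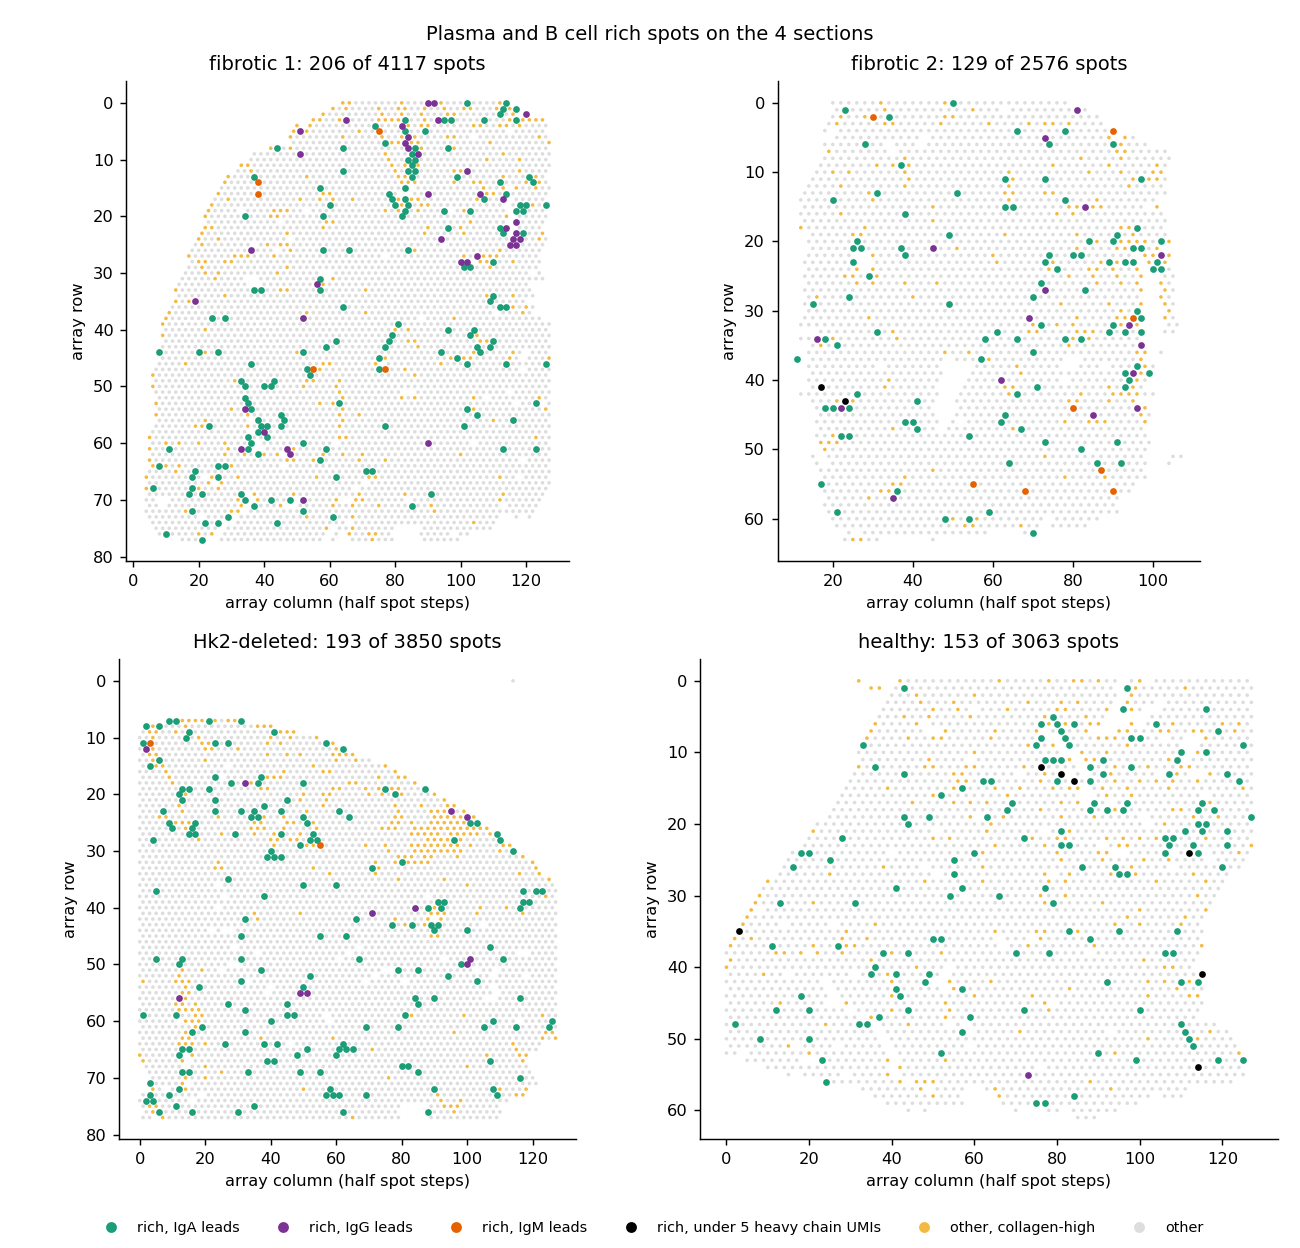
Maps of the 4 sections on the array grid (array column against array row). Grey points are other spots, yellow points are other spots among the 10 percent richest in Col1a1, Col1a2 and Col3a1, and larger points are rich spots coloured by the heavy chain class with most UMIs; the healthy section shows 153 spots taken by the same rule. IgG-led spots number 38, 16 and 11 in fibrotic 1, fibrotic 2 and Hk2-deleted, and 1 in the healthy section.

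Rich spots lay mostly in the pericentral part of the lobule and were more often high in collagen than the other spots. When the spots of a section were ranked by pericentral against periportal hepatocyte genes and split into 3 equal parts, 76.7%, 69.8% and 66.8% of rich spots in fibrotic 1, fibrotic 2 and Hk2-deleted fell in the pericentral part. The periportal part held 6.31%, 7.75% and 7.77%. Spots among the 10 percent of their section highest in fibrillar collagen were called collagen-high. This cut marks such spots in every section, the healthy one included. They made up 38.8%, 34.9% and 30.6% of rich spots but 8.49%, 8.70% and 8.91% of the other spots. All 3 sections showed both patterns. Spots were called surface where they, or a spot touching them, held any UMI of the mesothelial markers used. This loose rule can take in spots away from the liver's edge. It took 36.9%, 0.775% and 38.9% of rich spots and 33.2%, 2.37% and 30.7% of the others.

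The spots were partly clustered. Of the places touching a rich spot, 17.1%, 10.8% and 11.8% were rich themselves, against 4.16%, 4.59% and 4.56% of those touching another spot. Most groups were small: 92, 74 and 108 rich spots touched no other rich spot, and the largest touching group had 15 spots in fibrotic 1 and 5 in each of the other two sections.

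Over all genes, 1954 of 13101 tested were higher in rich spots (14.9%) and 1918 were lower (14.6%), together 29.6%, at an adjusted p under 0.05. The test was edgeR's quasi-likelihood test on UMIs summed per section and kind of spot, with the section as block, so that n = 3 sections. Because collagen and zone differed between the groups, each rich spot was also set against 3 matched other spots of its section. These had like collagen share, zone score and UMIs. Then 291 of 11665 genes were higher (2.49%) and 387 lower (3.32%), together 5.81%. Of these, 286 and 362 were called the same way against all other spots. Without scaling beyond the library totals the median gene was shifted by 0.20 on the log2 scale, and the calls turned to 4195 higher and 630 lower, so that 86.9% of calls were higher in place of 50.5%. Fold changes here are relative to the scaled median.

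Antibody genes showed some of the largest differences. Igha, the constant region of IgA (chromosome 12, from 113256204 to 113260236), had 8691, 6119 and 9308 CPM in the rich spots of fibrotic 1, fibrotic 2 and Hk2-deleted against 782, 353 and 902 CPM in the other spots. The lowest rich value was far above the highest value of other spots. The mean of its log2 ratios was 3.47 ± 0.43 (SD, n = 3 sections), and the log2 change was 3.19 against matched spots. Heavy chain values are a description rather than a test, since Ighj4 lies on the same mRNA as a constant region and helped choose the spots. Igkc, the constant region of the kappa light chain on chromosome 6, had 21199.5, 10580.5 and 13284 CPM against 1642, 627 and 1420.5 CPM, and its groups did not overlap either (mean log2 ratio 3.48 ± 0.44 SD; limma on section ratios, adjusted p = 0.0138).

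**Figure D2:**
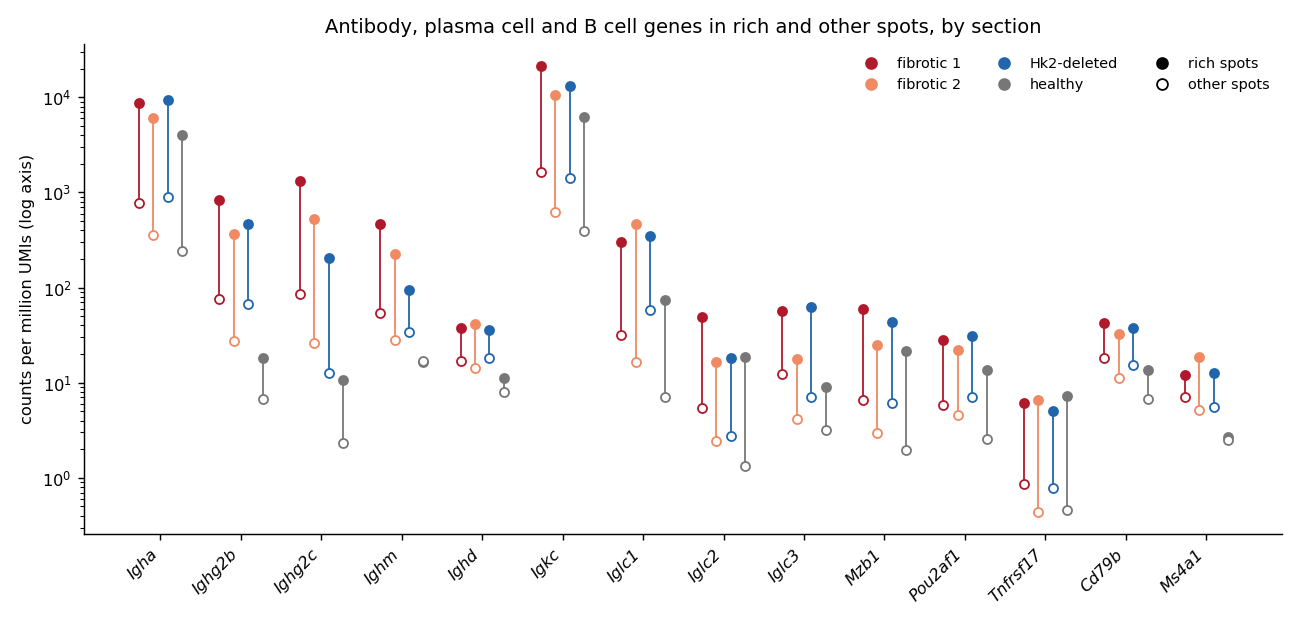
Level of 14 antibody, plasma cell and B cell genes in CPM on a log axis, by section; filled points are rich spots and open points the other spots, each the summed UMIs of 1 section. Filled points lie above open points in the 3 CCl4-treated sections for every gene shown, while Ighm and Ms4a1 nearly coincide in the healthy section.

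Most IgG UMIs came from Ighg2c and Ighg2b. Ighg2c, an IgG constant region (chromosome 12, from 113287389 to 113288932), had 1304, 529 and 207 CPM in the rich spots of fibrotic 1, fibrotic 2 and Hk2-deleted against 85.3, 25.8 and 12.6 CPM in the other spots. The summed rich spots of one section thus differed several-fold from those of another. Ighg2c was detected in 73.3%, 36.4% and 18.1% of rich spots. The 5 highest rich spots held 35.2%, 65.7% and 74.4% of its rich-spot UMIs, and 43.5%, 79.9% and 58.4% of those of Ighg2b. The sums of Ighg2c thus rest in large part on few spots. Its mean log2 ratio was 3.92 ± 0.25 (SD, n = 3). Ighg2b had 831, 364 and 463 CPM against 76.5, 27.3 and 66.9 CPM, a mean log2 ratio of 3.14 ± 0.50 (SD). Ighg1 was almost missing, at 2, 2 and 0 UMIs in rich spots; the count of 0 allows up to 0.939 CPM. Ighg3 was seen mainly in fibrotic 1, where 1 rich spot held 58 of its 92 rich-spot UMIs. Its level was 25.4, 0.549 and 0.626 CPM in the rich spots of fibrotic 1, fibrotic 2 and Hk2-deleted. The other spots had 2.96, 0.748 and 0.177 CPM, so in fibrotic 2 the rich spots had the lower level.

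IgM and IgD genes differed less evenly or by less. Ighm, the class of first responses, had 461, 227 and 94.5 CPM in the rich spots of fibrotic 1, fibrotic 2 and Hk2-deleted against 53.8, 28.3 and 34.3 CPM. Rich values exceeded other values in each section, but the log2 ratio varied widely (2.34 ± 0.92 SD, n = 3). Ighd, expressed by naive B cells, had 37.3, 41.7 and 35.7 CPM against 16.98, 14.4 and 18.3 CPM, a mean log2 ratio of 1.03 ± 0.32 (SD). Its groups did not overlap, but it differed by much less than Igha.

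The files hold 7 heavy chain constant genes, of which 1 was too low to test, and no count of calls is given for them. The light chains are encoded at other loci. All 4 tested light chain genes were called higher, beside 14.9% of all genes; with a spread estimated for each gene 3 were, beside 14.8%, and Iglc1 was lost (edgeR adjusted p = 0.113). Near-identical copies such as Iglc2 and Iglc3, and the IgG constant genes, can share probe signal, so how UMIs divide between them is uncertain.

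Kappa light chain dominated in every group. It made up 98.1%, 95.5% and 96.9% of the light chain constant UMIs in the rich spots of fibrotic 1, fibrotic 2 and Hk2-deleted, and 97.1%, 96.4% and 95.4% in the others. Lambda was concentrated in few places: the 5 highest rich spots held 63.4%, 92.9% and 67.2% of the rich-spot UMIs of Iglc1. For comparison, the 5 highest rich spots held 8.27%, 16.8% and 9.76% of Igha.

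By spot, IgA led. Among rich spots with at least 5 heavy chain UMIs, Igha was the most abundant class in 163 of 206 (79.1%) in fibrotic 1, 103 of 127 (81.1%) in fibrotic 2 and 180 of 193 (93.3%) in Hk2-deleted. IgG genes together led in 18.4%, 12.6% and 5.70%, and Ighm in 2.43%, 6.30% and 1.04%. IgM was concentrated: 1 rich spot of fibrotic 1 held 588 of 1665 Ighm UMIs. IgG-led spots were collagen-high in 55.3% and 56.2% of cases in fibrotic 1 and fibrotic 2, where IgA-led spots were so in 35.6% and 30.1%. In Hk2-deleted the shares were 27.3% of 11 IgG-led and 31.1% of IgA-led spots, the opposite order. No test was run on these spots, which are not replicates.

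**Figure D3:**
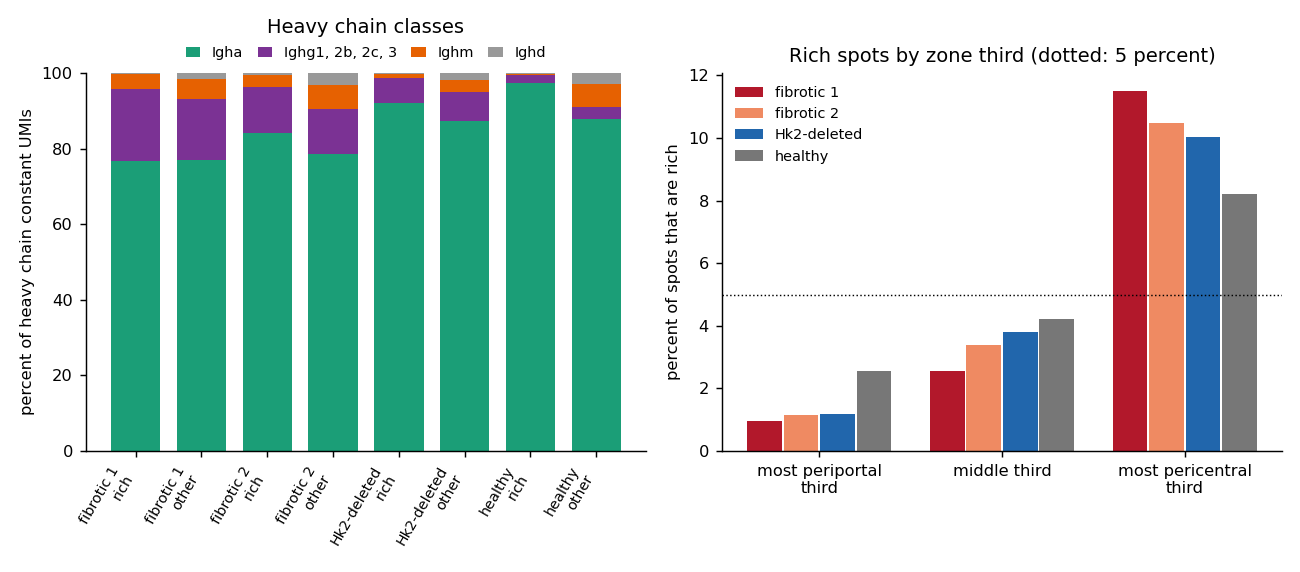
Left, percent of heavy chain constant UMIs by class in rich and other spots of each section, stacked to 100. Right, percent of spots that were rich in each zone of the lobule, with a dotted line at the 5 percent the rule takes; rich spots were 11.5%, 10.5% and 10.0% of pericentral spots in fibrotic 1, fibrotic 2 and Hk2-deleted and 8.23% in the healthy section.

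The shares of IgA and IgG differed more between sections than between kinds of spot, while that of IgM did not follow this. Igha made up 76.6% of heavy chain UMIs in rich and 76.8% in other spots of fibrotic 1, 84.0% and 78.5% in fibrotic 2, and 92.1% and 87.2% in Hk2-deleted. IgG genes together made up 19.0% and 16.2%, 12.3% and 12.0%, and 6.63% and 7.71% in the same order. Ighm took a smaller share in rich than in other spots of each section, 4.06% against 5.28%, 3.12% against 6.30% and 0.935% against 3.31%.

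Some variable segments, which differ between B cell clones, were concentrated in 1 spot. Of Igkv12-89, a kappa variable segment, fibrotic 1 had 494 UMIs, of which 191 lay in 1 spot (38.7%), and fibrotic 2 had 63, of which 47 lay in 1 spot (74.6%). In the healthy section 403 of 493 lay in 1 spot (81.7%). Hk2-deleted had 177 UMIs with at most 6 in any spot. Of Igkv19-93, the 5 highest spots held 41.5%, 48.4% and 32.4% of the UMIs of fibrotic 1, fibrotic 2 and Hk2-deleted. The joining segment Ighj1, which many clones share, was spread more evenly, with 12.5%, 21.1% and 8.78% in the 5 highest spots.

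Genes of plasma cells other than antibodies rose as well. Mzb1, a chaperone for antibody assembly, had 59.7, 24.7 and 43.5 CPM in the rich spots of fibrotic 1, fibrotic 2 and Hk2-deleted against 6.62, 2.99 and 6.05 CPM. The groups did not overlap (log2 2.83 ± 0.12 SE, edgeR adjusted p = 9e-119), and the log2 change was 2.52 against matched spots. Tnfrsf17, the receptor BCMA that keeps plasma cells alive, had 6.09, 6.59 and 5.01 CPM against 0.861, 0.439 and 0.791 CPM (log2 2.80 ± 0.32 SE). Tnfrsf17 passed the filter on low counts only through the rich spots, so its difference is a description rather than a test. Tnfrsf13b, the related receptor TACI, rose by 2.49, and Irf4, a transcription factor of plasma cell differentiation, by 2.34 on the log2 scale. Pou2af1, a B lineage coactivator of octamer-binding factors, had 28.2, 21.97 and 30.7 CPM against 5.89, 4.62 and 7.002 CPM, again without overlap.

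Of the 21 plasma cell genes, 15, Tnfrsf17 among them, were higher and 1 was lower against all other spots, where 14.9% of all genes were higher. Against matched spots 17 were higher and none lower, where 2.49% of all genes were higher. The list's median log2 change was 1.16 against all and 0.69 against matched spots, beside 0.01 for all genes tested against all other spots. Eaf2, Derl3, Tent5c, Slamf7, Cd28 and Prdm1, the master regulator of plasma cells, rose by 1.16 to 2.34. Txndc5, Sec11c, Creld2 and Trp53inp1, which other cells also use, rose by 0.28 to 0.36. Sdc1, the surface marker CD138 that hepatocytes also express, was the lower one, at 223, 250.5 and 279.8 CPM against 265, 291 and 339.9 CPM, and it was not called against matched spots (log2 -0.08, edgeR adjusted p = 0.448). Xbp1, which drives the secretory program, did not pass against all other spots, at 189, 166 and 199 CPM against 161, 147 and 199 CPM, and passed narrowly against matched ones (log2 0.17, adjusted p = 0.0489).

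Genes for folding in the endoplasmic reticulum, used by hepatocytes too, mostly did not pass. Of 18 tested, 1 was higher and 3 were lower, where 14.9% and 14.6% of all genes were, and none passed against matched spots. Sdf2l1, a chaperone cofactor, was the higher one, at 32.9, 18.7 and 35.1 CPM against 21.9, 18.6 and 21.8 CPM; rich and other spots overlapped. Without scaling beyond library totals the list's median turned from -0.08 to 0.11.

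B cell genes were higher at low levels. Cd79b, the partner of Cd79a, had 42.04, 32.4 and 37.2 CPM in the rich spots of fibrotic 1, fibrotic 2 and Hk2-deleted against 18.3, 11.1 and 15.4 CPM (log2 1.10, edgeR adjusted p = 1.13e-25). Ms4a1, the surface protein CD20, had 12.2, 18.7 and 12.5 CPM against 7.02, 5.13 and 5.58 CPM. Neither gene overlapped between rich and other spots. Cr2, the complement receptor of B cells and follicular dendritic cells, was highest in fibrotic 2, with 6.36, 14.8 and 6.26 CPM against 3.15, 3.48 and 2.53 CPM in the 3 sections.

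Of 24 B cell genes, 21 were higher and none lower, with a median log2 change of 1.01, where 14.9% of all genes were higher. Against matched spots 9 of 23 were higher (median 0.57), where 2.49% of all genes were. Among the 9 were Vpreb3, Tnfrsf13c, Blk, Cr2, Cd79b, Ms4a1, Bank1 and Cd37. Without collagen-high spots 12 of 24 were called, where 5.45% of all genes were higher and 7.08% lower. Genes of lymphoid follicles were called in 4 of 7 tested, the largest change being that of Ltb, a cytokine that organises lymphoid tissue, at 30.4, 20.3 and 19.7 CPM against 12.8, 9.67 and 9.39 CPM; 1 of 6 was called against matched spots.

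Vpreb3, a chaperone of the B cell receptor, showed the largest change of the B cell list, with 4.15, 2.75 and 4.70 CPM against 1.13, 0.722 and 1.31 CPM (log2 1.68 ± 0.34 SE, edgeR adjusted p = 8.15e-06). Pim2, a kinase that supports plasma cell survival, had 3.60, 2.75 and 1.57 CPM against 2.08, 1.88 and 2.29 CPM and did not pass (adjusted p = 0.821). Both promoters are shown because they were the only ones, among 17 plasma cell and 18 B cell genes with a RefSeq window in GRCm38.p6, that hold the octamer ATGCAAAT or its reverse complement ATTTGCAT, the site of the factors with which Pou2af1 works. Over all genes, 1.97% of 27025 had it in a window of 250 bases before to 50 after a start; the windows of Jchain and Cd79a did not. Capitals mark the octamer, Vpreb3 lies on the plus strand at chr10:75948050-75948349, and Pim2 on the plus strand at chrX:7878056-7878355.
Vpreb3: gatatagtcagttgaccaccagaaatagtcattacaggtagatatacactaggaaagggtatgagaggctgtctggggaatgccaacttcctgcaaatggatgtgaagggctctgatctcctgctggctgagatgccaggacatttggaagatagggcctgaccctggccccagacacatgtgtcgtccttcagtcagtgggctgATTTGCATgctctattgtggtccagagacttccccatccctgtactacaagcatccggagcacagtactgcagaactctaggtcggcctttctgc
Pim2: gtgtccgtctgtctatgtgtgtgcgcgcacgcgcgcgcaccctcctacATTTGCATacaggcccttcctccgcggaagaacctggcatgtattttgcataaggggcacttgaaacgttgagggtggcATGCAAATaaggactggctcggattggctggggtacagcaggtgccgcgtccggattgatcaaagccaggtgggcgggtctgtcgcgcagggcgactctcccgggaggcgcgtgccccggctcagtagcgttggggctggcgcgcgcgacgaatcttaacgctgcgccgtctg

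Signals that attract or keep plasma cells changed in part. Ccr10, a homing receptor of IgA plasma cells, was 3.53 higher on the log2 scale from very few UMIs. It had 1.38, 1.10 and 1.88 CPM against 0.141, 0.0258 and 0.129 CPM. Ccr10 passed the filter on low counts only through the rich spots, so its difference is a description rather than a test. Tnfsf13b, the survival factor BAFF, had 6.09, 2.75 and 7.20 CPM against 3.10, 2.17 and 3.07 CPM. Cxcr4, a chemokine receptor of plasma cell homing, had 27.4, 28.6 and 14.4 CPM against 13.9, 14.9 and 8.39 CPM. In all, 9 of 13 tested, Ccr10 among them, were higher against all other spots, where 14.9% of all genes were. Against matched spots 0 of 10 were higher, where 2.49% of all genes were and Ccr10 was too low to test. Tnfsf13, the survival factor APRIL, did not pass (log2 0.20, adjusted p = 0.209).

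Genes of antigen presentation on MHC class II were higher in both comparisons. All 10 were called against all other spots, where 14.9% of all genes were higher. Against matched spots 9 of 10 were called, where 2.49% of all genes were higher. Cd74, the chaperone of class II, had 2917, 1550.0 and 1692 CPM in the rich spots of fibrotic 1, fibrotic 2 and Hk2-deleted against 1387, 744 and 913 CPM. The log2 change was 0.82 against all and 0.40 against matched spots (edgeR adjusted p = 2.01e-11). H2-DMb2, a subunit that helps load peptides, had 42.04, 44.5 and 43.8 CPM against 18.96, 13.1 and 16.7 CPM, with no overlap. Macrophages and dendritic cells express these genes too; the summed level of the macrophage list was 2772, 1847 and 1942 CPM in rich and 1750, 1271 and 1389 CPM in other spots, and its part in the class II values was not tested.

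Other leukocyte genes rose against all other spots and mostly did not pass against matched ones. The shares of all genes that were higher were 14.9% and 2.49% in these comparisons. Macrophage genes were called higher in 13 of 17 and in 2 of 17 against matched spots, namely Trem2, a receptor of lipid-handling macrophages, and Ccr2, the receptor of recruited monocytes. Trem2 had 66.7, 37.9 and 39.4 CPM against 30.1, 16.7 and 19.2 CPM. Neutrophil granule genes were called in 12 of 12 and in 1 of 12 against matched spots; the one was Retnlg, with 28.5, 76.3 and 13.1 CPM against 11.2, 29.8 and 7.66 CPM. T and NK cell genes were called in 11 of 24, in 2 of 13 against matched spots, and in 0 of 24 without fibrotic 1, where 9.86% of all genes were still called higher and 9.36% lower. Cd3e, a subunit of the T cell receptor complex, had 16.3, 7.69 and 7.20 CPM against 6.08, 3.30 and 4.84 CPM. The summed level of the T and NK list was 174, 95.02 and 102 CPM in rich and 84.6, 52.2 and 70.5 CPM in other spots, and its part in the B cell values was not tested.

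**Figure D4:**
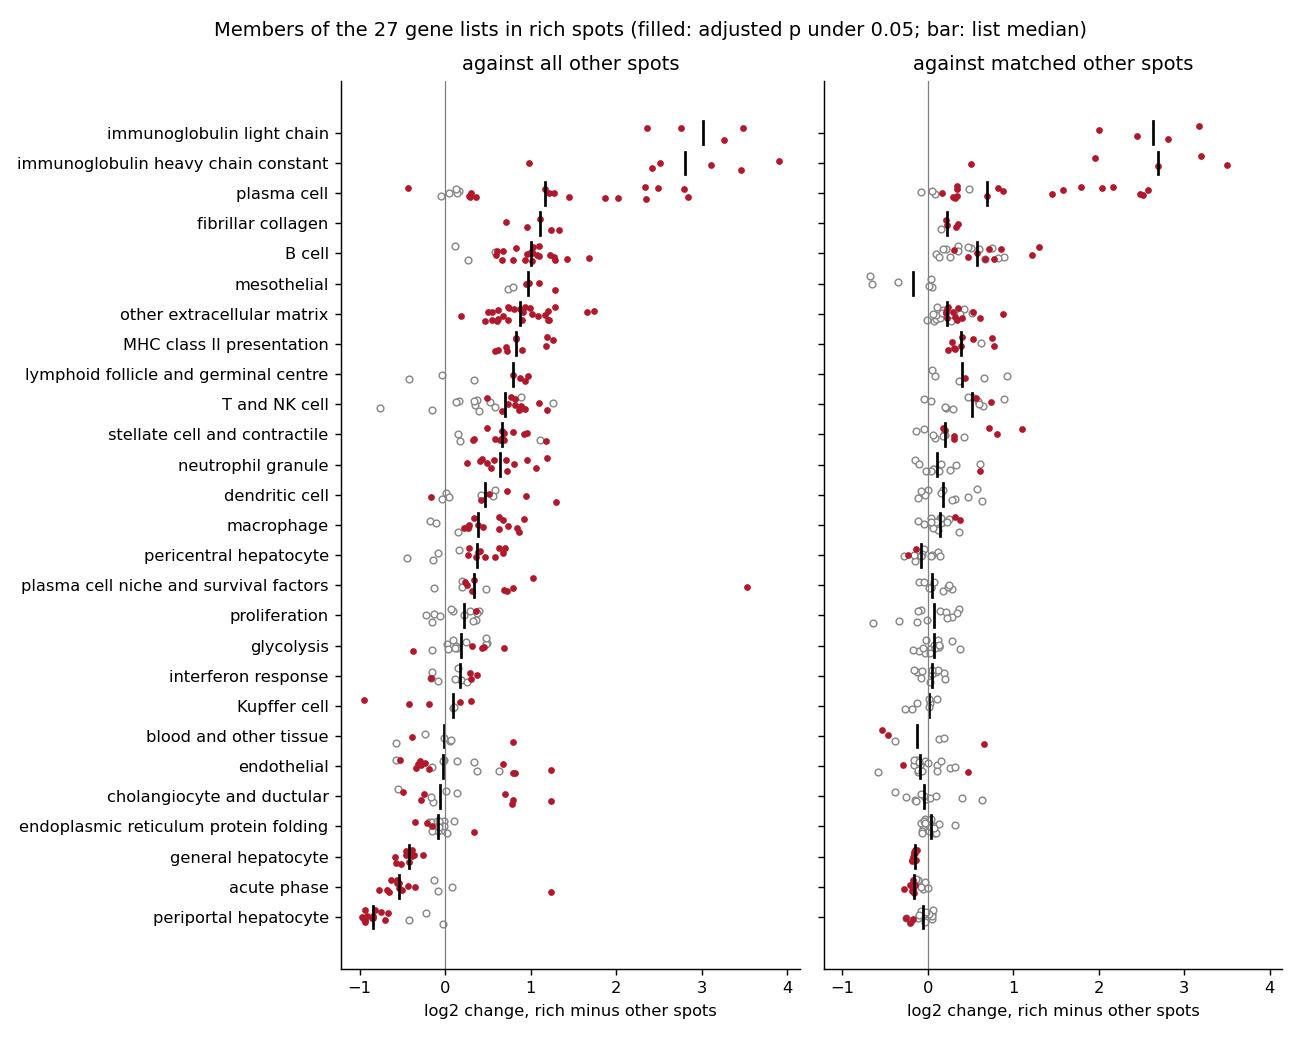
Log2 change of each tested member of 27 gene lists in rich spots (rows ordered by list median), against all other spots at left and against matched other spots at right; filled points have an adjusted p under 0.05 and black bars are list medians. The plasma cell median is 1.16 at left and 0.69 at right, while the general hepatocyte median goes from -0.43 to -0.15; fibrillar collagen and both zonal hepatocyte lists entered the matching.

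Dendritic cell genes were higher in 5 and lower in 1 of 12, where 14.9% and 14.6% of all genes were; 0 of 11 were called against matched spots, where 2.49% of all genes were higher. Cd209a, a lectin of dendritic cells, had 12.7, 9.34 and 6.26 CPM against 5.40, 1.81 and 2.48 CPM. Kupffer cell genes split, 2 higher and 3 lower of 7. Marco, a scavenger receptor of periportal Kupffer cells, was lower at 72.2, 37.3 and 47.3 CPM against 116, 56.2 and 90.7 CPM (log2 -0.95, edgeR adjusted p = 1.74e-31), but was not called against matched spots (log2 -0.19, adjusted p = 0.217).

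Scar genes were higher throughout. Col1a1, a main fibrillar collagen chain, had 756, 379 and 865 CPM in the rich spots of fibrotic 1, fibrotic 2 and Hk2-deleted against 373, 155 and 224 CPM. Every rich value exceeded every other value, but the ratio differed between sections (1.24 ± 0.49 SD), and the call was lost with gene-wise spreads (edgeR adjusted p = 0.137). All 5 fibrillar collagen genes tested were higher, 4 with gene-wise spreads and 4 against matched spots. Col1a1, Col1a2 and Col3a1 were used in the matching, so their remaining difference, log2 0.22 for Col1a1, shows how close it was. All 27 other extracellular matrix genes were higher, and 13 of 27 against matched spots. Beside these counts, 14.9% of all genes were higher against all other spots and 2.49% against matched spots. Mfap4, a microfibril protein, had 63.9, 19.8 and 53.2 CPM against 21.2, 7.58 and 14.3 CPM, and a log2 change of 0.78 against matched spots (adjusted p = 1.48e-08). Stellate and contractile genes were called in 13 of 16, and in 7 of 15 against matched spots. Pdgfrb, whose promoter drives the Cre, had 69.7, 48.3 and 53.2 CPM against 32.9, 22.5 and 24.04 CPM.

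Slpi, an inhibitor of neutrophil elastase, stood among the 10 largest increases, next to antibody genes. It had 438, 64.8 and 170.3 CPM in the rich spots of fibrotic 1, fibrotic 2 and Hk2-deleted against 36.2, 13.4 and 32.9 CPM. All rich values exceeded all other values, and the mean log2 ratio was 2.56 ± 0.71 (SD, n = 3). With gene-wise spreads the call was lost (edgeR adjusted p = 0.0803). It was detected in 68.4%, 45.7% and 49.2% of rich spots, and the 5 highest held 39.7%, 38.1% and 49.1% of its rich-spot UMIs. Against matched spots the log2 change was 1.86.

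Periportal hepatocyte genes were lower and pericentral ones mostly higher against all other spots. This restates the pericentral position of rich spots, which was read from the same genes, and is no separate result. Of 16 periportal genes, 13 were lower and none higher, where 14.6% and 14.9% of all genes were. Against matched spots 3 periportal genes were lower, where 3.32% of all genes were. Cyp2f2, a periportal cytochrome P450, had 737, 795 and 493 CPM against 1316, 1395 and 809 CPM (log2 -0.97, edgeR adjusted p = 2.67e-46), and -0.08 on the log2 scale against matched spots. The zone score of the matching was built from the periportal and pericentral lists, so what remained of these genes shows how close the matching was. Gls2, the periportal glutaminase, had 167, 214 and 205 CPM against 294, 369 and 343 CPM. Sds and Hal, enzymes of amino acid breakdown, fell by 0.94 and by 0.93. Sult2a7, a sulfotransferase, was the largest named decrease, at 4.15, 9.89 and 15.02 CPM against 7.42, 15.2 and 31.8 CPM, and it stayed called against matched spots (log2 -0.63, adjusted p = 0.0175). Pericentral genes were higher in 10 of 14. Against matched spots 0 of 13 were higher and 2 were lower, where 2.49% and 3.32% of all genes were. Oat, an aminotransferase of pericentral cells, had 269, 306 and 189.7 CPM against 159, 159 and 124 CPM.

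General hepatocyte genes were lower in 11 of 11, and also in 11 of 11 against matched spots. Beside these, 14.6% and 3.32% of all genes were lower. Alb, serum albumin, had 97463, 89293 and 59800.1 CPM in the rich spots of fibrotic 1, fibrotic 2 and Hk2-deleted. The other spots had 123949, 101235 and 69316 CPM. The log2 change was -0.43 against all and -0.15 against matched spots (edgeR adjusted p = 1.56e-05). Fewer cells of a type and less RNA per cell cannot be told apart in such sums. Acute phase genes were lower in 11 and higher in 1 of 15, the latter being Saa3, an acute phase protein that cells other than hepatocytes also make; its call was lost with gene-wise spreads (edgeR adjusted p = 0.195).

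The remaining lists are set against 14.9% of all genes higher and 14.6% lower. Cholangiocyte genes were 4 higher and 3 lower of 12, and endothelial genes 4 higher and 7 lower of 19, with list medians of -0.06 and -0.03 that turned to 0.13 and 0.16 without scaling beyond library totals. Rspo3, a Wnt cofactor of the central vein, had 78.3, 65.9 and 47.6 CPM against 37.8, 29.00 and 27.4 CPM. Interferon response genes were 3 higher and 1 lower of 12, glycolysis genes 4 higher and 1 lower of 16, and proliferation genes 1 higher of 13, which was Mki67, at 31.5, 21.4 and 21.9 CPM against 21.8, 11.6 and 16.4 CPM. None of these 3 lists had a call against matched spots. Mesothelial genes were higher in 4 of 6, and in 0 of 6 against matched spots. Of 7 genes of blood and other tissue 1 was higher, Myh11 of smooth muscle, and 1 lower, Ppbp of platelets.

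Levels were also read by distance from the nearest rich spot. For antibody and plasma cell genes the step from rich to touching spots follows from the choice, since a touching spot is by definition outside it, and only the values from the touching spots outward are independent of that step. In fibrotic 1, Igha went from 8691 CPM in rich spots to 1076 CPM in the spots touching them, 795 CPM at 2 steps, 708 CPM at 3 and 639.9 CPM at 4 or more. In fibrotic 2 it went from 6119 to 475, 372, 316 and 262 CPM, and in Hk2-deleted from 9308 to 1227, 862, 815 and 749 CPM. For Igha, touching spots were above farther spots in all 3 sections. Mzb1 went from 59.7 to 7.32, from 24.7 to 3.15 and from 43.5 to 7.28 CPM in the touching spots of fibrotic 1, fibrotic 2 and Hk2-deleted. Farther out, at 2, 3 and 4 or more steps, Mzb1 had 7.41, 6.22 and 5.86 CPM in fibrotic 1. The values were 2.85, 3.98 and 2.06 CPM in fibrotic 2 and 6.57, 5.03 and 5.36 CPM in Hk2-deleted, so its level did not fall steadily. Cd74 went from 2917 to 1720 and 1344 CPM in fibrotic 1 over the first 2 steps. Col1a1 went from 865 to 361, 229, 170 and 151 CPM in Hk2-deleted. Collagen-high spots made up 16.7%, 18.4% and 15.2% of touching spots and 7.25%, 8.44% and 7.85% of those at 2 steps. In the authors' deposited table of spatial autocorrelation, Moran's I was 0.359, 0.317 and 0.331 for Igha, and 0.0611, 0.0153 and 0.0224 for Mzb1.

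**Figure D5:**
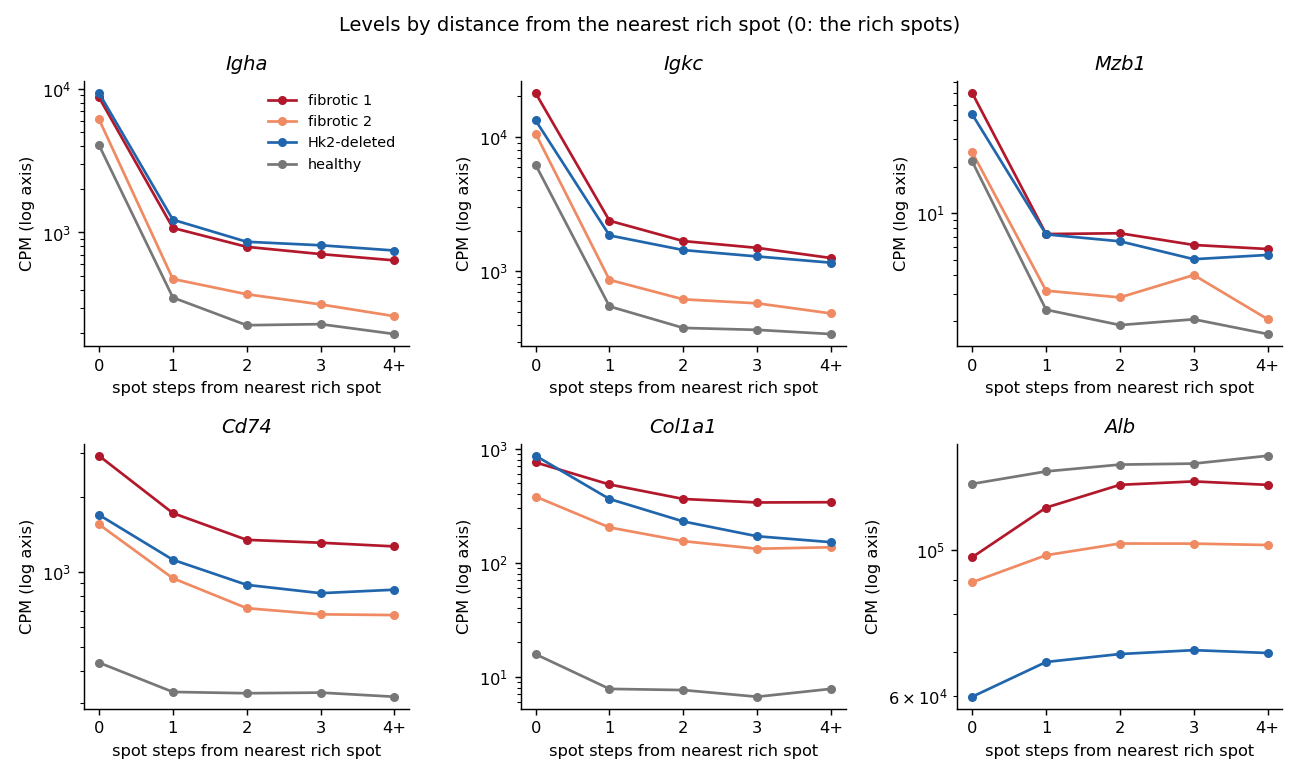
Level in CPM (log axis) of Igha, Igkc, Mzb1, Cd74, Col1a1 and Alb by the number of spot steps to the nearest rich spot (0 stands for the rich spots), 1 line per section, each point the summed UMIs of all spots at that distance. In fibrotic 1, Igha goes from 8691 to 1076 CPM over the first step, which the choice of the spots sets, and on to 639.9 CPM at 4 or more steps, while Alb is lowest in the rich spots of each section.

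The healthy section, taken by the same rule, gave 153 spots and serves as a description with no test. Its limit lay lower, at 483 CPM of the 3 genes together. Igha had 4046 CPM in these spots and 243 CPM in the others, and Mzb1 had 21.6 against 1.95 CPM. IgA led in 145 of 146 spots with enough heavy chain UMIs, and Ighg2c had 10.8 against 2.30 CPM. Ighm was level, at 16.6 and 16.8 CPM. Ms4a1 had 2.70 and 2.51 CPM, where the treated sections had more in rich than in other spots; this difference was not tested. Pericentral spots made up 54.9% of the 153. Collagen-high spots made up 19.0% of them and 9.52% of the other spots of this section.

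Between genotypes, the ratio of rich to other spots was compared in Hk2-deleted against the 2 fibrotic sections with an interaction term that has 1 residual degree of freedom. It called 14 genes higher (0.107%) and 8 lower (0.0611%) of 13101, and DESeq2 called 0 and 1. With gene-wise spreads it called 14 higher (0.107%) and 4 lower (0.0305%). At an unadjusted p under 0.05 there were 664 genes by edgeR and 31 by DESeq2. The rule used the heavy chain in each section, so heavy chain values are again a description. No gene of the plasma cell, B cell or MHC class II lists was called.

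Ighm had a smaller ratio in Hk2-deleted. Its log2 ratio was 1.28 there and 2.88 and 2.86 in fibrotic 1 and fibrotic 2 (difference -1.59). The 5 highest spots held 66.2% and 65.0% of the rich-spot Ighm UMIs of the fibrotic sections, against 37.1% in Hk2-deleted. Igkv12-89 differed by -3.91, where 1 spot held 191 and 47 UMIs of the fibrotic sections. Igkv12-89 counts among the genes called lower. It passed the filter on low counts only through the rich spots, so its difference is a description rather than a test. Ighg2b differed by -0.78.

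Some genes of scar and contractile cells gained more in the summed rich spots of Hk2-deleted. Called higher were 2 of 5 fibrillar collagen genes, Col1a1 and Col5a2, 2 of 16 stellate and contractile genes, Acta2 and Tagln, and 0 of 27 other extracellular matrix genes, beside 0.107% of all genes. Col1a1 had a log2 ratio of 1.76 there and 0.80 and 1.14 in fibrotic 1 and fibrotic 2 (difference 0.81 ± 0.17 SE, edgeR adjusted p = 0.00173). Acta2, the smooth muscle actin of myofibroblasts, had 1.66 against 0.78 and -0.28 (adjusted p = 0.00151). Mgp, a matrix protein, and Saa3 differed by 1.07 and 1.09. Of 1438 Saa3 UMIs in the rich spots of Hk2-deleted, 962 lay in 5 spots. Of 2762 Col1a1 UMIs in these rich spots, 1242 lay in 5 spots. The 5 highest rich spots held 429 of 2733 Col1a1 UMIs in fibrotic 1 and 133 of 690 in fibrotic 2. The median rich spot had 291 CPM of Col1a1 in Hk2-deleted, 577 in fibrotic 1 and 261 in fibrotic 2. The Col1a1 sum of Hk2-deleted thus rests in large part on few spots. Without collagen-high spots 1 gene was called higher and 6 lower; Acta2 then differed by -0.062 and Saa3 by -0.011.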

How the data were processed

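Visium libraries of formalin-fixed liver were measured on 4 sections. The authors deposited whole-number UMI counts per gene and spot, with spot positions, and a table of Moran's I, a spatial score per gene; Space Ranger 2.0.0 and mm10 are named per the submitters' processing notes. The members and gene lists were chosen with earlier results of these data known. Counts were summed per section and kind of spot, without the 3 genes that chose the spots. Genes passing filterByExpr were tested with edgeR 4.0.16 in R 4.3.3 (TMM, quasi-likelihood, section as block, Benjamini-Hochberg adjusted p-values); limma 3.58.1 and DESeq2 1.42.0 were alternatives. edgeR shared 1 trended spread over all genes, so p-values of variable genes are too small; fits with gene-wise spreads, limma on section ratios and library totals alone were added after seeing the data. The code was tested on simulated data. Spots are not replicates. The main edgeR p-values rest on a spread between sections of 1 mouse each that was shared over all genes, not on each gene's own spread. The pairing of rich and other spots comes from their shared section. Named genes were the antibody genes, the 10 largest called increases and decreases with a pooled level of at least 10 CPM and the same sign in every section, up to 4 called members per list, and up to 6 each way for the genotype term; Hk2, Col1a1 and Alb could be named anywhere. Further list members, variable segments and the promoters were chosen after their values were seen. Floors of 3 UMIs cover counting error only. 1 gene of the lists is not reported here.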

Additional observations from a re-analysis of the deposited data

Results flagged for a closer look

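The ratio of rich to other spots differed between Hk2-deleted and the fibrotic sections by edgeR's interaction term for 10 named genes, each with 1 Hk2-deleted mouse. Lower in Hk2-deleted were Ighm (difference -1.59 on the log2 scale), Iglc1 (-1.36), Smc5, a chromosome maintenance protein (-1.07), and Ighg2b (-0.78). Ighm and Ighg2b share an mRNA with Ighj4, which helped choose the spots, so their values are a description. With gene-wise spreads the calls of Smc5 (edgeR adjusted p = 0.0576) and Iglc1 (0.999) were lost. The log2 ratios of Iglc1 were 3.03 and 4.67 in fibrotic 1 and fibrotic 2 and 2.40 in Hk2-deleted, and 5 spots held 92.9% of its rich-spot UMIs in fibrotic 2. Higher were Saa3 (1.09), Gas1 (1.08), Mgp (1.07), Acta2 (1.06), Iglc3 (0.99) and Lzts2 (0.89).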

How the results depend on the processing

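Against 1954 genes higher and 1918 lower, taking the top 2 percent gave 1073 and 1077, the middle part of spots by UMIs 882 and 793, matched spots 291 and 387, no collagen-high spots 695 and 904, collagen-high spots only 334 and 499, library totals alone 4195 and 630, DESeq2 961 and 1229, and the fit with no replicate block, which ignores the shared section, 92 and 15. Leaving out 1 section each gave 1292 to 1743 higher and 1227 to 1827 lower. For the genotype term (14 higher, 8 lower), the top 2 percent gave 5 higher, the top 10 percent 96, the middle part by UMIs 4 and 4, ranking by Cd79a alone 55 and 17, other spots not touching 28 higher, matched spots 3 and 14, no collagen-high spots 1 higher, collagen-high spots only 4 higher, no surface spots 3 and 4, gene-wise spreads 4 lower, and DESeq2 0 and 1. Without a fibrotic section the genotype term has no residual degree of freedom and gives no test.

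Directions turned for some genes (log2 values). Against matched spots Cyp17a1 was 0.017, Krt7 -0.024, Krt19 -0.040, Lrrn4 -0.35 and Saa3 -0.059. Without collagen-high spots Lrrn4 was -0.90 and Saa3 -0.10, and in collagen-high spots only Krt19 was -0.012 and Rhbg -0.0047. With library totals alone Calr was 0.033 and Bst2 0.022. Ranked by Cd79a alone Ighg3 was -0.047 and Ifit2 -0.020. The top 2 percent gave Col12a1 -0.11, the top 10 percent Ppbp 0.26, the middle part by UMIs Lrrn4 -0.34, and leaving out 1 section each put Cldn4 between -0.0045 (without fibrotic 1) and 1.51. For the genotype term, Iglc1 was 0.59 ranked by Cd79a alone, Ighg2b 0.34 and Iglc3 -0.25 in the middle part by UMIs, Saa3 -0.082 and Iglc3 -0.54 in the top 2 percent, Acta2 -0.025 ranked by Ighj4 alone, and without collagen-high spots Acta2 was -0.062 and Saa3 -0.011. The cause was not tested. Over the alternatives of rich against other spots, named genes kept direction and call 2033 times, lost the call 460 times, gained it 1 time and turned 17 times. Levels of a few UMIs, as for Ccr10, limit what these sections can show.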
